A study of Mus musculus with 4 samples.

Results

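The circadian clock genes described here are 10 mouse genes, Dbp, Tef, Nfil3, Per1, Per2, Per3, Nr1d1, Nr1d2, Cry1 and Clock, measured by 24 of the 45101 probe sets of an Affymetrix 3' expression array. A probe set is a group of short oligonucleotides that together read 1 transcript. The 10 genes, out of 18194 named on the array, were selected on earlier results of these same arrays, in which Dbp was already known to lie below control. The differences between arrays are therefore a description and carry no test. All probe sets that the platform annotation gives to 1 of these symbols were used. Of these genes, 4 had 1 probe set and 6 had several.

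The samples were 3T3-L1 cells, a mouse fibroblast line that differentiates into fat cells, taken 24 h after induction with insulin, dexamethasone and isobutylmethylxanthine in medium with 25 mM glucose and 10% serum. Of the 4 cultures, 1 carried the control siRNA siGL3, 1 an siRNA against aof2 (now Kdm1a, the histone demethylase LSD1), and 1 an siRNA against rfk (riboflavin kinase, which makes flavin mononucleotide). Transfection preceded induction by 24 h. The remaining culture had tranylcypromine, which inhibits LSD1 and monoamine oxidases, in its induction medium, and its labels mention no siRNA. If it was not transfected, the drug and the lack of transfection cannot be told apart in its differences from control siRNA. All 4 shared the line, the induction and the time of harvest, and each went onto 1 array. With 1 array per group there is no replicate check, so "above" and "below" describe these arrays and not the conditions, and their number limits the precision. Each culture was sampled at 1 time, so no rhythm was measured.

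The mammalian clock is a feedback loop of transcription. CLOCK and its partner BMAL1 (Arntl) bind E-box elements and switch on the Per and Cry genes, whose proteins then repress them. The same pair drives Nr1d1 and Nr1d2, which encode the REV-ERB repressors, and the output factors DBP and TEF, which activate D-box elements that NFIL3 represses. In cultured fibroblasts and preadipocytes, glucocorticoids such as dexamethasone and agents that raise cAMP are known to reset this loop, and both kinds of agent are in the induction medium.

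The windows before the start sites of the members that lay lowest with aof2 siRNA, and that of Per1, a classic E-box gene, are shown so that the elements named above can be read beside the values. RefSeq sequences of build GRCm38.p6 were found for 9 of the 10 genes, at 13 start sites. The 250 bases before each start were searched on both strands for the E-box CACGTG, for the D-box as TTATGTAA or TTACGTAA, for the element bound by REV-ERB and ROR proteins as TAGGTCA or TGGGTCA, and for the cAMP element TGACGTCA. Capitals mark the matches. The E-box and the cAMP element read the same on both strands, and no searched word overlapped another in these windows.

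Cry1 (chr10:85185055-85185304, minus strand): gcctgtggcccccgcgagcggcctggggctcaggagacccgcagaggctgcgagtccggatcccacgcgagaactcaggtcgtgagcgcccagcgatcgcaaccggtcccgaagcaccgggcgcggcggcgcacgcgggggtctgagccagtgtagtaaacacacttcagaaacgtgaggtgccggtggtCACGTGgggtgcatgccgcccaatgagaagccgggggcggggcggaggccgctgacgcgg

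Dbp (chr7:45704997-45705246, plus strand): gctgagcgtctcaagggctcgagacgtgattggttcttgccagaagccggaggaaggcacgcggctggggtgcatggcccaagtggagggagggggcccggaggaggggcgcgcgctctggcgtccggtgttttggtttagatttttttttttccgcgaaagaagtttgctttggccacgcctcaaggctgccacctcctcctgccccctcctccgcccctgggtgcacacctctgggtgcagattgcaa

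Tef, first start site (chr15:81802423-81802672, plus strand): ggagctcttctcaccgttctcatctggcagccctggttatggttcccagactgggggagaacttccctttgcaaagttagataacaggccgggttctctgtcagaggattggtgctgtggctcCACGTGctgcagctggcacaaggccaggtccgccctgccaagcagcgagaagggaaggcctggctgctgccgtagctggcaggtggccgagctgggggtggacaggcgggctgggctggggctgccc

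Per1, first start site (chr11:69098699-69098948, plus strand): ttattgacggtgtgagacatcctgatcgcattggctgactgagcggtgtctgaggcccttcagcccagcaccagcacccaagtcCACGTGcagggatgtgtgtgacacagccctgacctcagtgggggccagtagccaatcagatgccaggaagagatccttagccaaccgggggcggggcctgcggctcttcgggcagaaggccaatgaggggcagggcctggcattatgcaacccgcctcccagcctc

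Per3 (chr4:151044666-151044915, minus strand): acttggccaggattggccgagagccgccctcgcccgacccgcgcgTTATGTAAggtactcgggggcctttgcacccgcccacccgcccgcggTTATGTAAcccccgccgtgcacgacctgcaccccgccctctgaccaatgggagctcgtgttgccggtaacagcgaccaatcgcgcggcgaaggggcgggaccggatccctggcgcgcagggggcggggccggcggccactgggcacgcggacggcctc

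An E-box stood 60 bases before the start of Cry1, 166 bases before the first start of Per1, and 127 and 138 bases before the first and second starts of Tef. It was in 4 of the 13 windows, and in 6.02% of the 32851 windows of this length in the table. The D-box word was in 1 of the 13, that of Per3, where it occurred at 205 and at 158 bases before the start, and in 0.931% of all windows. The REV-ERB and ROR word lay 12 bases before the start of Nfil3, the only match among the 13 windows, against 5.38% of all windows. The cAMP word was in 0 of the 13 and in 1.55% of all. None of the 4 words was in the window shown for Dbp. A match is a description of letters, and factor binding was not measured.

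**Figure D1:**
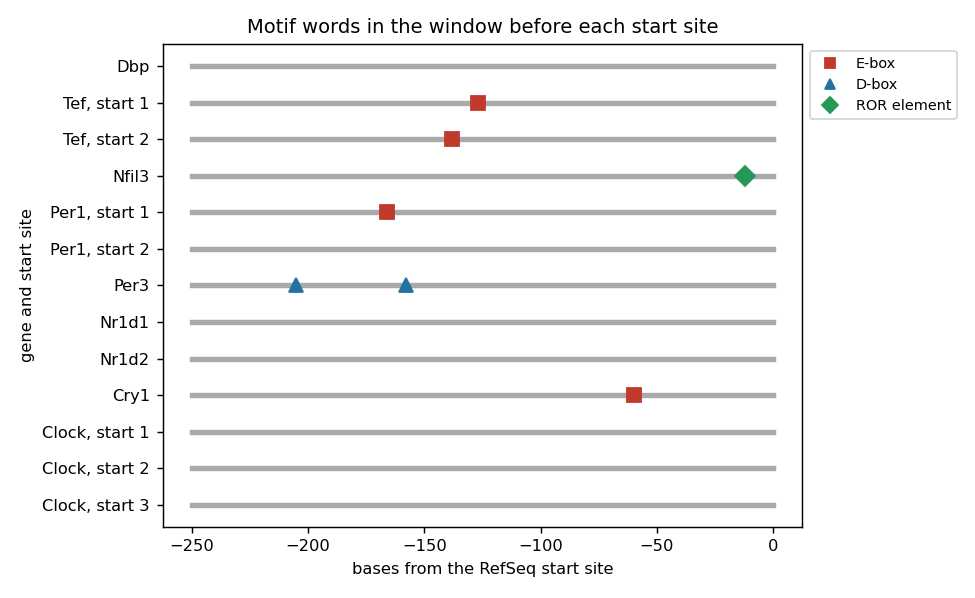
Matches of the searched words in the 250 bases before each of 13 RefSeq start sites of 9 genes. The horizontal axis is the distance in bases from the start site, each grey bar is 1 window, and symbols mark the first base of a match. E-boxes lie in the windows of Cry1, Tef and Per1, and both D-box matches in that of Per3.

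The deposited values were MAS5 signals, linear intensities per probe set that the authors had scaled array by array. With 2% of probe sets trimmed from either end the mean signal was 500.003 on every array, and median signals were 53.3 to 56.2. Each gene was read by its brightest probe set, judged on the mean log2 signal. The background was the 10788 genes with a mean over the 4 arrays at or above the median probe set, which is a signal of 50.9 and is called the filter below. Of the 10 clock genes 9 reached it, and Nr1d1 did not. The targeted genes were low where the labels place their siRNA: Kdm1a had a signal of 681 with aof2 siRNA and 3054 to 3494 elsewhere, and Rfk 573 with rfk siRNA and 2018 to 2334 elsewhere. All 5 fibroblast and preadipocyte markers and 5 of 6 adipocyte markers reached the filter, while Adipoq, the gene of the fat cell hormone adiponectin, stood at 4.32 to 22.0. Leukocyte (0 of 3) and endothelial (0 of 2) markers did not reach it. Of 3 epithelial markers only Epcam did, through a probe set at 202 to 285, while its other probe set stood at 1.80 to 6.56. The 18 probe sets of bacterial hybridisation controls lay -0.26 to 0.21 from the control array on the log2 scale. Of the 24 probe sets of bacterial transcripts added to the RNA, the mean difference was 0.29 with aof2 siRNA, 0.17 with rfk siRNA and -0.01 with tranylcypromine. In these bulk samples, fewer cells of a type and less RNA per cell cannot be told apart.

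The output factor Dbp was brightest in the control siRNA array and lower in all 3 others. DBP is a basic leucine zipper activator whose transcript is among the most strongly rhythmic outputs of the clock. Its brighter probe set (1438211_s_at) gave signals of 685 with control siRNA, 314 with aof2 siRNA, 435 with rfk siRNA and 345 with tranylcypromine. These are 45.9%, 63.5% and 50.3% of control, or log2 differences of -1.12, -0.66 and -0.99. The second probe set (1418174_at) gave 259, 100.2, 174 and 156, in the same order, with differences of -1.37, -0.57 and -0.73. The control array was highest and the aof2 siRNA array lowest in both, and between aof2 siRNA and tranylcypromine the gap was only 0.13 in the brighter probe set but 0.64 in the other. Because the 3 comparisons share the control array, their common direction rests on that 1 array. Against the mean of the 3 other arrays, Dbp stood at -0.58 with aof2 siRNA, 0.05 with rfk siRNA and -0.40 with tranylcypromine. Among genes of like signal, within 0.5 of Dbp's mean log2 signal, 90% had log2 differences no larger in size than 0.51 with aof2 siRNA, 0.48 with rfk siRNA and 0.61 with tranylcypromine. For the second probe set these limits were 0.71, 0.63 and 0.82, and its rfk siRNA and tranylcypromine values lay within them.

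Tef encodes a close relative of DBP that binds the same D-box. Its brightest probe set (1424175_at) read 804 with control siRNA, 552 with aof2 siRNA, 777 with rfk siRNA and 645 with tranylcypromine, or differences of -0.54, -0.05 and -0.32. The rfk siRNA array lay next to control here, and the aof2 siRNA array was lowest. For this probe set, 90% of genes of like signal had differences no larger in size than 0.47, 0.43 and 0.53. Only its aof2 siRNA value lay beyond them. The 3 probe sets all lay below control in each comparison, from -0.84 to -0.45 with aof2 siRNA and from -0.42 to -0.05 with rfk siRNA. With tranylcypromine they spread from -1.44 to -0.32, and the lowest was a probe set (1438033_at) that read 166 with control siRNA and 61.1 with tranylcypromine. The size of the tranylcypromine difference thus depends on the probe set.

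Nfil3 is the gene of the repressor that competes for D-boxes. Its only probe set read 1115 with control siRNA, 1286 with aof2 siRNA, 1028 with rfk siRNA and 1399 with tranylcypromine. The differences were 0.21, -0.12 and 0.33, so that Nfil3 stood slightly above control in the aof2 siRNA and tranylcypromine arrays, where Dbp and Tef stood below it. With rfk siRNA Nfil3 lay below control, as Dbp and Tef did. The differences of Nfil3 are within the 0.45, 0.41 and 0.52 that covered 90% of genes of like signal.

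**Figure D2:**
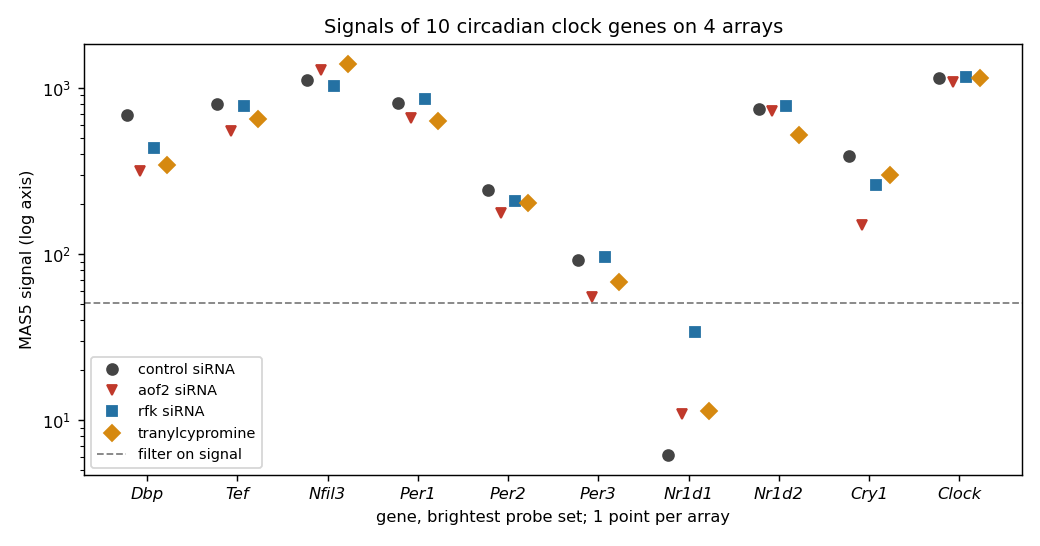
MAS5 signal on a log axis for the brightest probe set of each of the 10 clock genes, with 1 point per array and no error bars because each group has 1 array. The dashed line is the filter at a signal of 50.9. For Dbp and Cry1 the control siRNA point is highest and the aof2 siRNA point lowest, while the 4 points of Clock lie between 1081 and 1163. Heights of different genes are not comparable, since probe sets differ in response.

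Cry1, which encodes the main repressor of CLOCK and BMAL1, lay furthest below control among the clock genes that reached the filter, and did so in the aof2 siRNA array. Its only probe set (1433733_a_at) read 390 with control siRNA, 149 with aof2 siRNA, 259 with rfk siRNA and 301 with tranylcypromine. These are 38.2%, 66.4% and 77.1% of control, or log2 differences of -1.39, -0.59 and -0.37. The aof2 siRNA array was the lowest of the 4, by 0.80 against rfk siRNA and by 1.01 against tranylcypromine. Referred to the average of the 3 other arrays it still stood at -1.07, whereas rfk siRNA stood at -0.002 and tranylcypromine at 0.29. Of genes with like signal, 90% had differences no larger in size than 0.62, 0.56 and 0.76 in the 3 comparisons. No second probe set was there to check Cry1.

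The 3 Period genes encode the partners of the cryptochromes in the repressing complex, and Per1 is in addition a direct glucocorticoid and cAMP target. Per1 read 811 with control siRNA, 662 with aof2 siRNA, 853 with rfk siRNA and 630 with tranylcypromine, or -0.29, 0.07 and -0.36. The control and rfk siRNA arrays formed the higher pair, and the other 2 the lower pair. These differences lie within the 0.47, 0.43 and 0.54 that covered 90% of genes of like signal. The brightest probe set of Per2 (1417602_at) read 244, 177, 210 and 203 in the order control, aof2 siRNA, rfk siRNA and tranylcypromine, so that control was highest and aof2 siRNA lowest, with differences of -0.46, -0.22 and -0.26. Per2 too lay within the 0.67, 0.57 and 0.80 that covered 90% of genes of like signal. Its other 2 probe sets were below the filter and did not follow the brightest: 1 lay above control in all 3 arrays, by 0.25, 0.19 and 0.48, and the other was at -2.59 with aof2 siRNA, where its signal was only 8.52, and above control elsewhere.

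Per3 was dim. Its brightest probe set (1421087_at) read 91.8 with control siRNA, 55.1 with aof2 siRNA, 95.6 with rfk siRNA and 67.6 with tranylcypromine, or -0.74, 0.06 and -0.44. As for Per1, control and rfk siRNA were the higher pair. The only other of its 6 probe sets that reached the filter gave 0.10, -0.58 and -0.04, so the pattern rests on 1 probe set. At this signal 90% of genes had differences of up to 0.96, 0.93 and 1.05 in size, and the 3 values of Per3 lie within that spread.

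The REV-ERB repressor genes were read unevenly. Nr1d2 (REV-ERB beta) read 744 with control siRNA, 724 with aof2 siRNA, 777 with rfk siRNA and 520 with tranylcypromine. The first 3 lay close together and the tranylcypromine array stood apart below them, at -0.52, against -0.04 and 0.06 for the siRNAs. Among genes of like signal, 90% differed by no more than 0.53 with tranylcypromine. Its second probe set had signals of 2.34 to 29.9 and gives no usable size. Nr1d1 (REV-ERB alpha) read 6.15 with control siRNA, 10.9 with aof2 siRNA, 33.8 with rfk siRNA and 11.4 with tranylcypromine, all under the filter. Its log2 differences of 0.82, 2.46 and 0.89 are of a size that MAS5 values of this dimness often show, since 90% of genes of like signal had differences of up to 2.93, 3.03 and 2.98 in size.

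Clock, the gene of the activator itself, was level over the arrays. Its brightest probe set read 1146 with control siRNA, 1081 with aof2 siRNA, 1163 with rfk siRNA and 1153 with tranylcypromine, or -0.08, 0.02 and 0.01. Its 4 probe sets, all above the filter, ranged from -0.56 to 0.12 with aof2 siRNA, from -0.11 to 0.58 with rfk siRNA and from -0.32 to 0.01 with tranylcypromine, and the widest values came from the dimmest of them.

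**Figure D3:**
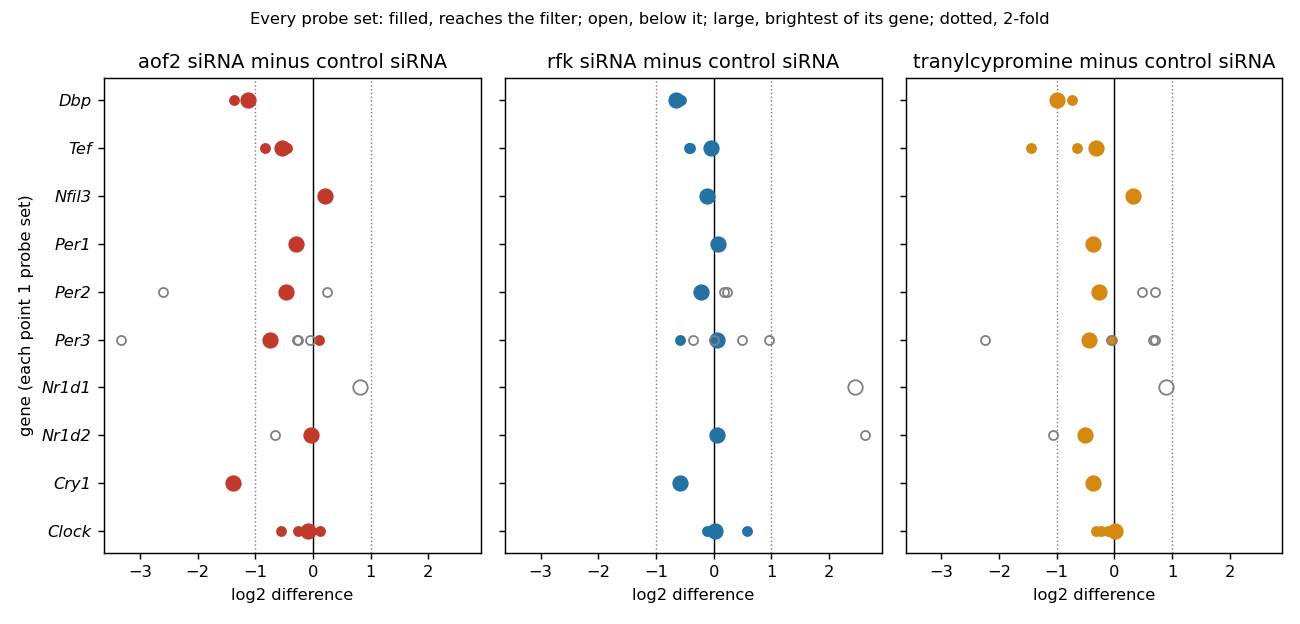
Log2 difference from control siRNA for all 24 probe sets of the 10 clock genes, with 1 panel per comparison. Filled points reach the filter on signal, open points do not, and the large point is the brightest probe set of its gene. The probe sets of Dbp and Tef lie below 0 in all 3 panels, and the open points of Per2, Per3, Nr1d1 and Nr1d2 scatter widely.

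As a list in the aof2 siRNA array, 8 of the 10 genes lay below control and 2, Nfil3 and Nr1d1, above it. The median log2 difference was -0.38, beside -0.004 over the 10788 genes, of which 50.7% lay below control. At least 2-fold below control were 2 of the 10, Dbp and Cry1, and 0.538% of all genes. None of the 10 was at least 2-fold above it, against 1.61% of all genes. At 1.5-fold, 3 were below (Dbp, Cry1 and Per3) with 2.88% of all genes, and 1 was above (Nr1d1, under the filter) with 6.26%. Nothing is read from these counts or from those of the other 2 comparisons, because results of these arrays helped to choose the genes. Of the 16 probe sets that reached the filter, 13 lay below control.

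In the rfk siRNA array 5 clock genes lay below control and 5 above it, beside 51.5% of all genes below it. The median was -0.014, beside -0.009 over all genes. None was at least 2-fold below control (0.806% of all genes), and 1, the dim Nr1d1, was at least 2-fold above (0.927%). At 1.5-fold, Dbp and Cry1 were below control (3.8% of all genes) and Nr1d1 above it (3.92%). Without members under the filter the count at 2-fold is 0.

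In the tranylcypromine array 7 clock genes lay below control and 3, Nfil3, Nr1d1 and Clock, above it. The median was -0.34, beside -0.02 over all genes, of which 52.0% lay below control. None was at least 2-fold below control (0.945% of all genes) or above it (2.23%). At 1.5-fold, Dbp was below (4.77%) and Nr1d1 above (7.48%). Dbp at -0.99 lay at the edge of 2-fold, and with the arrays centred on their medians it stood at -1.05. Of the 16 probe sets above the filter, 14 lay below control.

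**Figure D4:**
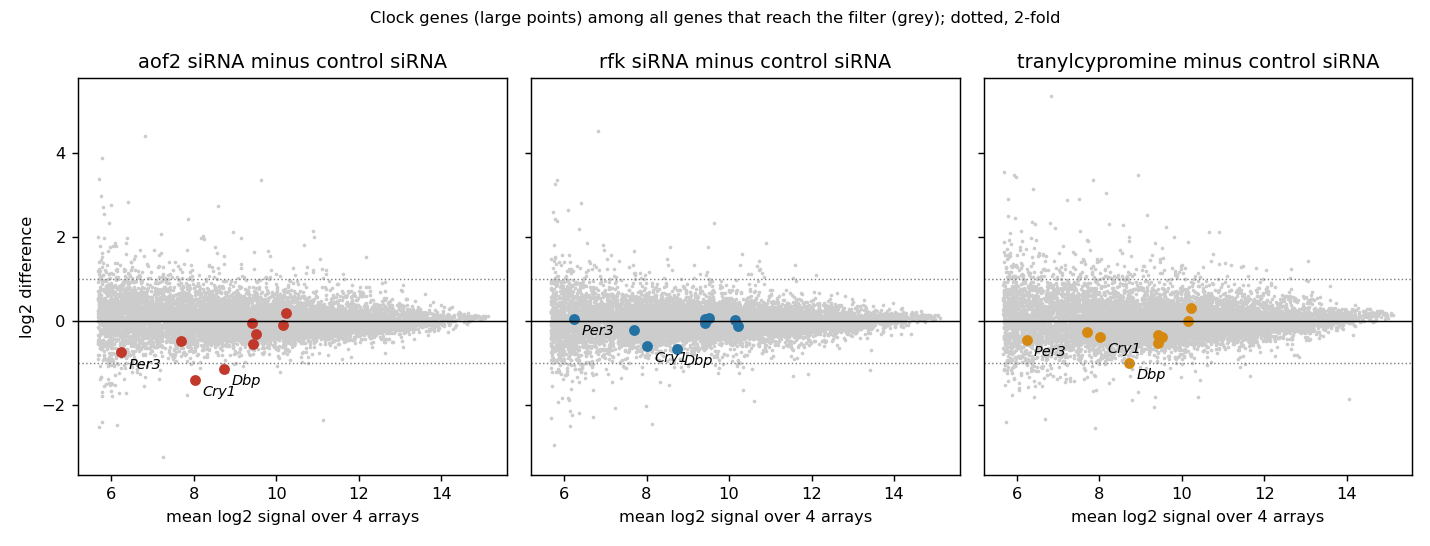
Log2 difference from control siRNA against mean log2 signal for the 10788 genes that reach the filter (grey) and the 9 clock genes among them (large points), with 1 panel per comparison and dotted lines at 2-fold. Dbp and Cry1 lie below the lower dotted line with aof2 siRNA, and with rfk siRNA and tranylcypromine no clock gene lies below it.

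Among the other genes of the clock that reached the filter, read by brightest probe set, the widest differences were those of Ciart and Usp2. Ciart stood at -0.85 with rfk siRNA and Usp2 at 1.08 with tranylcypromine. Of 22 other clock genes looked up, 20 were named on the array and 15 reached the filter. Over the 20, 12 lay below control with aof2 siRNA, 10 with rfk siRNA and 8 with tranylcypromine, with medians of -0.21, -0.05 and 0.09. Of all genes that reach the filter, 50.7%, 51.5% and 52.0% lay below control. Of the 20, 0 were at least 2-fold below control with aof2 siRNA (0.538% of all genes), 1 (the dim Rorb) with rfk siRNA (0.806%) and 0 with tranylcypromine (0.945%). At least 2-fold above it was Npas2 in all 3, with a signal of 2.41 in the control array and 16.9 to 23.6 in the others, all under the filter, and Usp2 with tranylcypromine. Of all genes that reach the filter, 1.61%, 0.927% and 2.23% were at least 2-fold above control. With no filter, 19.3%, 19.3% and 20.8% of genes were at 2-fold in either direction.

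The activator Arntl (BMAL1) read 618 with control siRNA, 686 with aof2 siRNA, 631 with rfk siRNA and 672 with tranylcypromine. Like Clock it was level, with differences of 0.15, 0.03 and 0.12. Its paralog Arntl2 stood at 0.01, 0.20 and -0.08, and its second probe set, also above the filter, at 0.47, 0.52 and 0.74. Cry2, the second cryptochrome, read 217, 185, 180 and 201 in the order control, aof2 siRNA, rfk siRNA and tranylcypromine. Its differences of -0.23, -0.27 and -0.11 were small beside that of Cry1 with aof2 siRNA, although no test of that contrast is possible.

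Bhlhe40 encodes DEC1, a repressor that binds E-boxes. It read 1404 with control siRNA, 886 with aof2 siRNA, 1114 with rfk siRNA and 1635 with tranylcypromine, or -0.66, -0.33 and 0.22. It was thus lowest in the aof2 siRNA array and highest in the tranylcypromine array. Its paralog Bhlhe41 (-0.36, -0.10 and -0.56) and Hlf (0.62, 0.38 and 0.47), the third relative of DBP and TEF, were under the filter. Rora, an activator that opposes the REV-ERBs, stood at -0.53, -0.24 and -0.25, from a control signal of 94.9.

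Ciart, a gene of a further clock repressor, read 149 with control siRNA, 107 with aof2 siRNA, 82.7 with rfk siRNA and 186 with tranylcypromine. It was lowest with rfk siRNA (-0.85) and, like Bhlhe40, highest with tranylcypromine (0.32). Usp2, which encodes a deubiquitinating enzyme with rhythmic transcripts, read 200 with control siRNA, 265 with aof2 siRNA, 292 with rfk siRNA and 422 with tranylcypromine. Among brightest probe sets above the filter, its differences of 0.41, 0.55 and 1.08 were the highest of the list. Its second probe set gave 0.79, 0.66 and 0.79. At the other ends were Btrc (-0.43 with rfk siRNA) and Timeless (-0.38 with tranylcypromine), and, above control, Csnk1d (0.18 with aof2 siRNA) and Csnk1e (0.32 with rfk siRNA), the genes of kinases that act on PER proteins. Other probe sets of Csnk1d reached -0.30 with aof2 siRNA. A dimmer probe set of Btrc, also above the filter, stood at -1.08 with aof2 siRNA, which is beyond 2-fold. It read 67.6 with control siRNA and 31.9 with aof2 siRNA. A dimmer probe set of Fbxw11 above the filter stood at -0.92 with rfk siRNA.

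**Figure D5:**
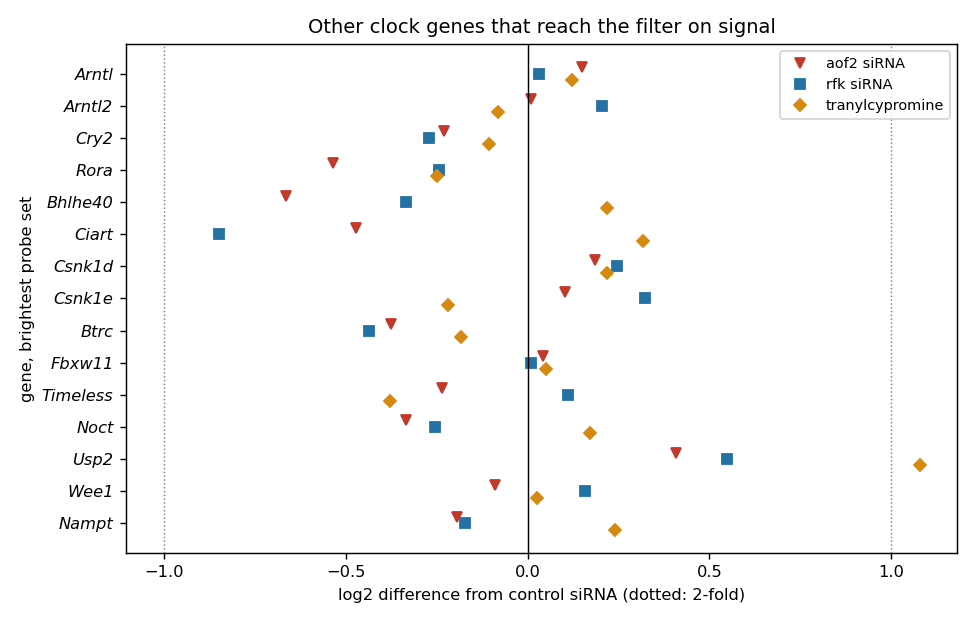
Log2 difference from control siRNA for the 15 other clock genes that reach the filter, by brightest probe set, with 1 symbol per comparison and dotted lines at 2-fold. Usp2 with tranylcypromine, at 1.08, is the point beyond 2-fold, and Arntl lies near 0 in all 3 comparisons.

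Genes that answer the induction medium were read beside the clock genes. Of 9 glucocorticoid-responsive genes, which include Per1, 3 lay below control with aof2 siRNA, 6 with rfk siRNA and 4 with tranylcypromine, with medians of 0.11, -0.06 and 0.09. The shares of all genes below control were 50.7%, 51.5% and 52.0%. Fkbp5, a chaperone gene with strong glucocorticoid response, stood at 0.53 with aof2 siRNA, -0.06 with rfk siRNA and 0.53 with tranylcypromine, and Dusp1, a phosphatase gene, at 0.44, 0.05 and 0.61. Per1, at -0.29, 0.07 and -0.36, lay on the other side of control from Fkbp5 with aof2 siRNA and tranylcypromine. With rfk siRNA both genes lay close to control. Zbtb16, a zinc finger factor gene, was below control in all 3 by its brightest probe set, at -0.57, -0.53 and -0.70. Its dimmest probe set, also above the filter, stood at 0.21, 0.04 and -0.46. The kinase gene Sgk1 stood at -0.25, 0.37 and -0.35, and the metallothionein gene Mt2 at 0.15, -0.30 and 0.26, so that rfk siRNA lay opposite to the other 2 in both.

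Of 9 cAMP-responsive genes, 4 lay below control with aof2 siRNA and 3 in each of the other arrays, with medians of 0.15, 0.29 and 0.11. Beside these counts stand 50.7%, 51.5% and 52.0% of all genes below control. The orphan receptor gene Nr4a1 was above control in all 3, at 0.47, 0.56 and 0.43. The brightest probe set of Nr4a2 stood at 0.41 with tranylcypromine, but its others above the filter ran from -0.75 to 0.20 there. Fos, an AP-1 subunit gene, stood at 0.53 with aof2 siRNA, 1.17 with rfk siRNA and 0.11 with tranylcypromine. Fosb, of the same family, was under the filter, with signals of 61.9, 33.0, 23.9 and 44.4 and differences of -0.91, -1.38 and -0.48. The phosphodiesterase gene Pde4b was at -0.24 with aof2 siRNA, 0.45 with rfk siRNA and -0.65 with tranylcypromine. In this order its other probe sets above the filter gave -0.24, 0.58 and -0.17, and -0.34, -0.08 and -0.48. Crem, a cAMP-responsive factor gene, stood at 0.15, -0.59 and 0.21 in the same order, and its second probe set above the filter at 0.57, 0.09 and 0.48. The summed signal of the 6 adipocyte markers was 24236 with control siRNA, 22566 with aof2 siRNA, 22520 with rfk siRNA and 21011 with tranylcypromine. That of the fibroblast and preadipocyte markers ran from 33090 to 39887, that of the leukocyte markers from 69.9 to 114, and that of the endothelial ones from 17.6 to 30.2. The adipocyte sum is mostly that of Cebpb, an early adipogenic factor gene at 15205 to 16241. Fabp4, the fatty acid binding protein gene of fat cells, differed more: it read 2463 with control siRNA, 1301 with aof2 siRNA, 791 with rfk siRNA and 1093 with tranylcypromine, which are 52.8%, 32.1% and 44.4% of control. Pparg, the receptor gene that drives adipogenesis, was at 92.0%, 58.7% and 73.6% of control. Cebpa, also above the filter, went the other way, at 146.9%, 101.8% and 121.8% of control. Lpl was at 74.3%, 100.8% and 72.2% of control, so the adipocyte markers did not share 1 direction. The part of these differences in the clock gene values was not tested.

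The genes whose 3 log2 differences lay closest to those of Dbp, by the sum of squared gaps over the 10788 genes, were Tmem63b, Adam19 and Cux2. Tmem63b stood at -1.11, -0.57 and -0.95, Adam19 at -0.96, -0.53 and -1.02, and Cux2 at -0.97, -0.73 and -0.87, in the order aof2 siRNA, rfk siRNA, tranylcypromine. Closest to Cry1 were Dgke (-1.38, -0.61 and -0.24), Clvs1 (-1.33, -0.40 and -0.50) and Cdk5r1 (-1.21, -0.42 and -0.41). Closest to the dim Nr1d1 were Slc1a3, Ccn1 and Il15ra, with sums of squared gaps of 0.61 to 0.70 where those for Dbp were 0.01 to 0.04. Only 3 differences that share 1 control array enter this measure, so it is a weak measure of likeness.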

How the data were processed

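Total RNA of 4 cultures, 250 ng each, was labelled with biotin and measured on 1 array each. The deposited values are signal intensities made by the authors with MAS5, per the submitters' processing notes. The sources used here give no version, scaling target or detection calls. MAS5 sets no floor, so log2 differences of dim probe sets scatter widely.

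Groups came from the labels. No offset was added before log2. Of all probe sets 34958 had 1 symbol in the platform annotation, 932 had several and 9211 were unnamed here, and those with several were not used. All 10 members matched the RefSeq gene table by gene identifier. Differences are log2 signals minus those of the control siRNA array, and a gene was called at 2-fold. No test between conditions was run, with 1 array per group. The calling step was checked on simulated data with known shifts.

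The members and lists were chosen with earlier results of these data known. Named were all members, fixed genes of the clock, the 2 highest and 2 lowest of the other clock, glucocorticoid and cAMP lists in each comparison (brighter of both arrays at or above the filter), and the 3 genes most like Dbp and the other 2 members of widest range. Rorb was named after its value was seen. Alternatives covered scaling, an offset of 16, the choice of probe set, the reference, the filter and the fold. Python 3.11.15, NumPy 2.4.6, pandas 2.3.3 and matplotlib 3.10.9 were used.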

Additional observations from a re-analysis of the deposited data

How the results depend on the processing

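The medians of the 10 clock genes moved by less than the spread of all genes' differences under each of the 7 alternatives tried for them, and no member called at 2-fold changed sign. With aof2 siRNA the 2 genes at 2-fold were 1 against the mean of the 3 other arrays, where Dbp stood at -0.58 and Cry1 at -1.07, and 4 at a 1.5-fold threshold. With rfk siRNA the count of 1 became 2 with the mean of all probe sets, where the dim second probe set of Nr1d2 entered, 0 with only probe sets that reach the filter, where Nr1d1 has no value, and 3 at 1.5-fold. With tranylcypromine the count of 0 became 1 with arrays centred on their medians (Dbp at -1.05) and 2 at 1.5-fold. Of 207 values for single genes under alternatives, 25 moved by more than that spread. The share of all genes at 2-fold in either direction, which was 2.15% with aof2 siRNA, 1.73% with rfk siRNA and 3.18% with tranylcypromine, was 19.3%, 19.3% and 20.8% with no filter, 0.655%, 0.582% and 1.28% with the filter at the 75th percentile (a signal of 414), and 9.14%, 7.72% and 12.3% at 1.5-fold. The number of arrays limits all values, and dim probe sets give no usable size.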
